A study of Mus musculus with 8 samples.

Results

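The lumbar spinal cord of mice without the miR-34/449 microRNAs was compared with that of wild-type mice by RNA sequencing at postnatal day 14. Of the 8 libraries in the series, the 4 labelled as lumbar cord were used: 2 from a triple knockout (TKO, Mir34a-/-, Mir34bc-/- and Mir449-/-) and 2 from C57BL/6J wild-type mice (WT). The other 4 libraries, thoracic cord of both genotypes at the same age, lent their spread to the fit and served to test whether the genotype difference varied between segments. The labels give no strain background for the TKO mice, name no tissue-specific driver, and do not state that the libraries came from separate mice, so the spread behind the p-values is that of these libraries and may be technical.

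MicroRNAs of the miR-34/449 family bind messenger RNAs through a shared seed near their 5′ end and lower the stability or translation of those transcripts. Mir34a is known as a target of the tumour suppressor p53. The Mir34bc and Mir449 loci are known for their part in the formation of multiciliated cells. Ependymal cells line the central canal of the cord. The lumbar cord holds the motor neurons of the hindlimb, and at this age its oligodendrocytes are still wrapping axons in myelin while proliferation declines.

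The mature sequences are shown because their common seed defines which transcripts the deleted loci could bind. 4 mature 5p forms had a RefSeq entry on GRCm38.p6, read 5′ to 3′ with the seed, bases 2 to 8, in capitals:
mmu-miR-34a-5p: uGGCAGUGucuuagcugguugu
mmu-miR-34b-5p: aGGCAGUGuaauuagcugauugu
mmu-miR-449a-5p: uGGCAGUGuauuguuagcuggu
mmu-miR-449c-5p: aGGCAGUGcauugcuagcugg
All 4 carry the same 7-base seed, GGCAGUG, whose match in a transcript is CACTGCC. They lie on chromosome 4 (miR-34a, 150068473 to 150068494), chromosome 9 (miR-34b, 51103610 to 51103632) and chromosome 13 (miR-449a, 113037549 to 113037570; miR-449c, 113036008 to 113036028). miR-34c and miR-449b belong to the same loci.

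The depth, as total reads assigned to genes, was 19749083 and 16195212 for TKO and 17827821 and 18826059 for WT. The segment label was checked with the posterior Hox genes, which mark lumbar identity. The 8 posterior Hox genes with enough reads summed to 126 and 133 CPM (reads scaled to the size of the library) in lumbar TKO and 143 and 148 CPM in lumbar WT, against 8.19 to 25 CPM in the thoracic libraries. The TKO libraries differed from each other in RNA composition: the share of mitochondrially encoded transcripts was 12% and 4.99% in TKO replicates 1 and 2, against 10.5% and 12.4% in WT. Intron reads made up 5.09% and 6.23% in TKO and 4.6% and 4.39% in WT. Of 16 genes of Schwann cells, the myelinating glia of the nerve roots, TKO replicate 1 was above TKO replicate 2 in 2. The values of both TKO libraries are therefore given throughout, and their part in each result was not tested beyond leaving out each library in turn.

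Few genes passed the test, and those that did included a growth factor, a matrix proteoglycan and a group of neighbours of Mir34a. Among 17067 genes, 7 (0.041%) had a Benjamini-Hochberg adjusted p under 0.05 by edgeR's quasi-likelihood test, of which TKO was higher in 3 (0.0176%) and lower in 4 (0.0234%). The unadjusted p was under 0.05 for 972 genes (5.7%), with TKO higher in 509 (2.98%) and lower in 463 (2.71%). TKO was the higher genotype for 49.8% of all genes. Both TKO libraries lay above both WT libraries for 17.4% of all genes tested and below both for 17.1%. The median log2 change over all genes was −0.0012 and the median standard error (SE) 0.24. A change of 2-fold or more with separate libraries was seen for 203 genes (1.19%) that were higher and 243 (1.42%) that were lower in TKO. Of these, only 88 and 123 had a mean of at least 1 CPM over the lumbar libraries, so many rest on few reads. An exact permutation test of 2 against 2 libraries cannot go below a p of 0.333.

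**Figure D1:**
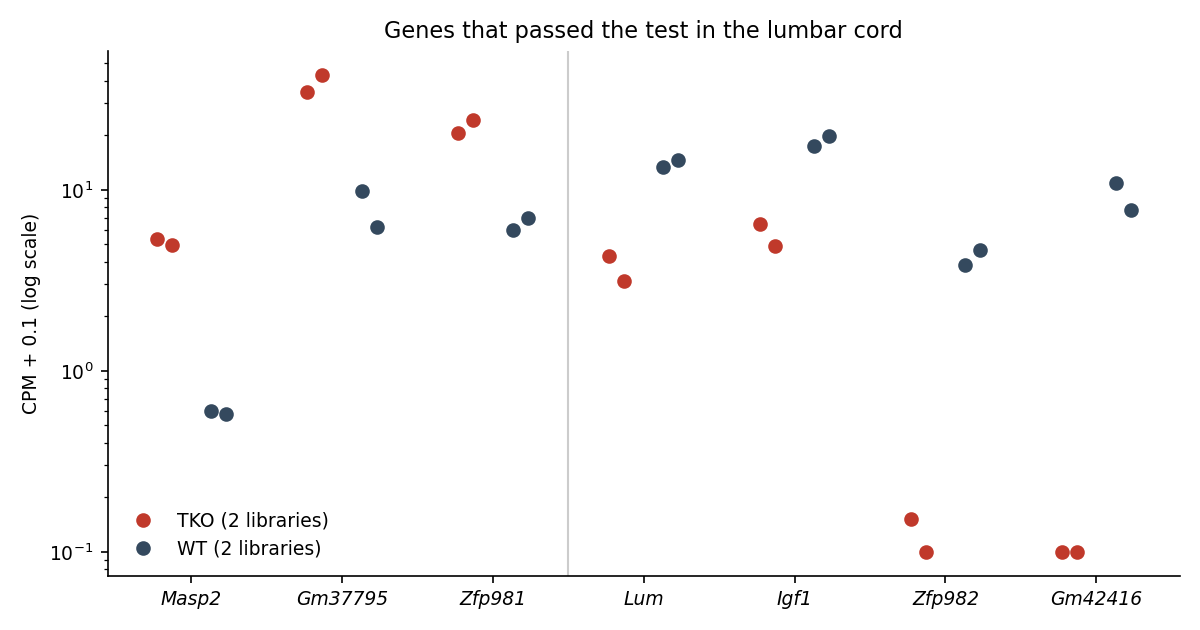
CPM plus 0.1, on a log scale, of the 7 genes with an adjusted p under 0.05 in each lumbar library, with the 2 TKO libraries to the left of the 2 WT libraries. Masp2, Gm37795 and Zfp981 were higher in both TKO libraries, and Lum, Igf1, Zfp982 and Gm42416 lower.

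Igf1, the growth factor that promotes the survival of neurons and the growth of myelinating glia (chromosome 10, 87858265 to 87937042), had 6.37 and 4.81 CPM in TKO and 17.4 and 19.6 CPM in WT. Both TKO libraries were below both WT libraries, and the fall was 3.31-fold (log2 −1.72, SE 0.21, adjusted p = 0.0352). Per length, its level was 1.75 and 1.68 TPM (length-scaled abundance) in TKO and 4.93 and 5.27 TPM in WT. All of its reads were uniquely placed. With any 1 lumbar library left out, the log2 change was −1.94 to −1.54 and no longer passed the test. Igf1 also missed the threshold with exon reads, although nearly all of its reads were exonic, and in a fit of the 4 lumbar libraries alone.

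Lum, which encodes lumican, a proteoglycan that orders collagen fibrils (chromosome 10, 97565128 to 97572703), had 4.19 and 3.02 CPM in TKO and 13.4 and 14.5 CPM in WT. It fell 3.85-fold in TKO, with no overlap between the libraries (log2 −1.95, SE 0.23, adjusted p = 0.0352). Without 1 lumbar library its log2 change was −2.20 to −1.73 and missed the threshold each time, as it did with exon reads and with the lumbar libraries alone. In bulk tissue, fewer cells of a type and less RNA per cell cannot be told apart, which applies to Lum and to every cell type described here.

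Masp2, a serine protease that starts the lectin pathway of complement (chromosome 4, 148602554 to 148615499), had 5.23 and 4.87 CPM in TKO and 0.503 and 0.479 CPM in WT. These are 101 and 84 reads in TKO and 9 in each WT library, a ratio of counts of 10.3 (exact 95% counting interval 6.35 to 17.8). Masp2 rose in TKO (log2 3.35, SE 0.31, adjusted p = 0.011), with 70 and 61 exon reads in TKO and 6 and 5 in WT. It kept passing without either TKO library, but not without WT replicate 1 or WT replicate 2, where the log2 change was still 3.3 to 3.4.

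Zfp982, a zinc-finger gene (chromosome 4, 147492417 to 147513486), had 1 and 0 reads in TKO and 67 and 86 reads in WT. It fell to the edge of detection in TKO (adjusted p = 0.011), and WT exceeded TKO by a ratio of counts of 152 (exact 95% counting interval 26.9 to 6060). Zfp982 lost its call without WT replicate 2 (adjusted p = 0.118). Zfp981, a related zinc-finger gene (chromosome 4, 146502027 to 146539395), moved the other way. It had 20.4 and 24.3 CPM in TKO and 5.87 and 6.86 CPM in WT, a rise of 1.81 on the log2 scale (SE 0.21, adjusted p = 0.0352). Its reads were counted almost wholly in introns: exons held 4 and 0 reads in TKO and 6 and 3 in WT. Of its lumbar reads 75.3% were uniquely placed, and with unique reads alone it missed the threshold, as it did in the 4 lumbar libraries alone and with any 1 of them left out.

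Gm37795, a transcript model that overlaps the Mir34a hairpin on the same strand (chromosome 4, 150068539 to 150070997), had 34.6 and 43.2 CPM in TKO and 9.72 and 6.11 CPM in WT. It rose in TKO (log2 2.30, SE 0.27, adjusted p = 0.0352). All of its reads were uniquely placed and all were counted as intron reads, so its level per exon length is listed at 0. It missed the threshold in the lumbar libraries alone. It kept passing without TKO replicate 1 only, and its log2 change ranged from 2.00 to 2.67 when 1 library was left out.

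Gm42416, a numbered gene model on chromosome 18 (36952741 to 37840200) named because it passed the test, had 0 reads in both TKO libraries and 193 and 143 reads in WT. WT was at least 112-fold higher, taking 3 reads over the TKO group as the floor (adjusted p = 0.00253). Not one of these reads was uniquely placed, and all were counted in introns, so they can belong to other places in the genome. Gm14288, named after its values were seen, had a like split of reads: 1 in each TKO library and 87 and 85 in WT, of which 0 were unique in WT, with an adjusted p of 0.0667. Across the fit, 1053 genes (6.17%) had under 50% unique reads in the lumbar libraries, and 9.12% of these had an unadjusted p under 0.05 against 5.7% of all genes.

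All 7 genes had the same sign in the thoracic cord, whose libraries are separate from these. There the same fit called 6 genes (0.0352%), 4 of them shared: Igf1, Masp2, Zfp981 and Zfp982. It is not stated whether both segments were taken from the same mice.

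At the deleted loci, all 6 hairpins (3 named Mir34 and 3 named Mir449) were at 0 reads in each of the 4 libraries. The libraries hold polyadenylated RNA and do not capture such short precursors, so the labels cannot be checked by them. Gpx8, an endoplasmic reticulum peroxidase that lies within the Mir449 host gene (chromosome 13, 113042753 to 113046410), had 7.35 and 6.44 CPM in TKO and 15.9 and 19.6 CPM in WT. Its libraries did not overlap (log2 −1.36, SE 0.26), but its adjusted p was 0.33. Cdc20b, whose transcript hosts Mir449 (chromosome 13, 113035111 to 113091195), had 10 and 16 reads in TKO and 0 and 2 in WT, a ratio of 13.1 (exact 95% counting interval 3.27 to 113; adjusted p = 0.729). Cdc20b was thus higher in both TKO libraries, without passing. Mcidas, a regulator of multiciliated cell fate beside it, had 3 reads in TKO and 3 in WT. Btg4, at the Mir34bc locus, had 0 reads in TKO and 1 in WT.

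The surroundings of Mir34a held more differing genes than the rest of the genome. Within 10 Mb of Mir34a, 4 of 212 genes tested were called (1.89%), against 3 of 16855 elsewhere. An unadjusted p under 0.05 was found for 26 (12.3%), 19 higher and 7 lower, against 5.61% elsewhere. Most of these genes lay on the same side of the hairpin as Padi2, at 9.14 Mb, with Masp2, Zfp981 and Zfp982 among them. The exceptions were Samd11 at 6.18 Mb and a clone-named gene model at 5.34 Mb on the opposite side, and Gm37795, which overlaps the hairpin. Samd11, a protein with a SAM domain known from photoreceptors, had 5.85 and 8.06 CPM in TKO and 1.23 and 0.957 CPM in WT (log2 2.66, adjusted p = 0.0667). All of these share a chromosome segment with the deleted locus, so they are not independent of one another.

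**Figure D2:**
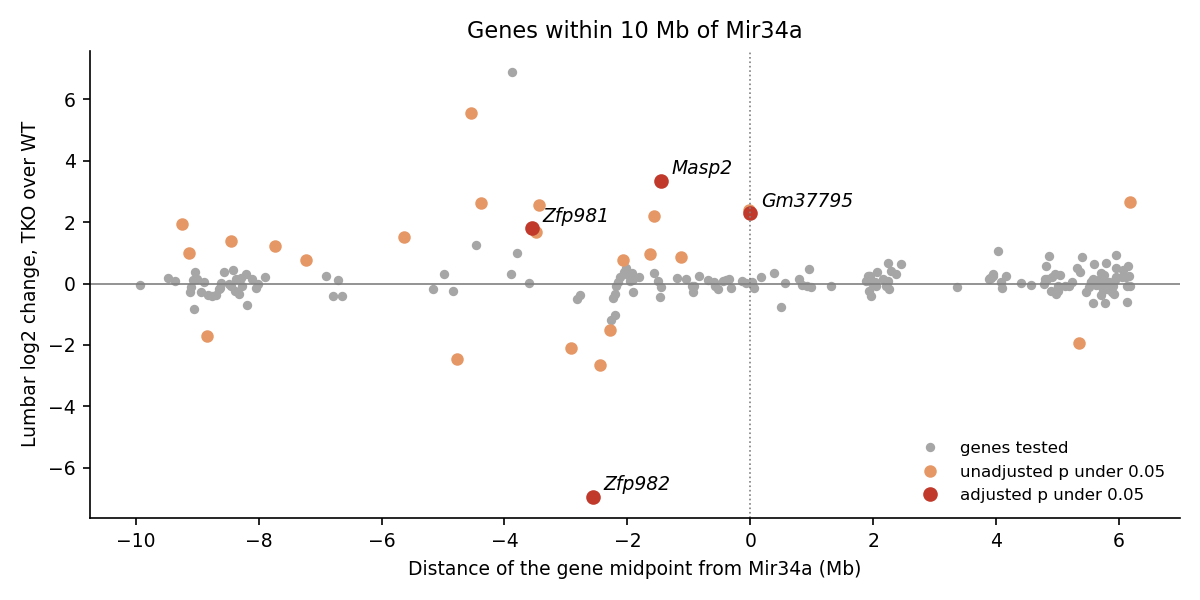
Lumbar log2 change (TKO over WT) of the 212 genes tested within 10 Mb of Mir34a, by the distance of the gene's midpoint in Mb; colours mark adjusted and unadjusted p under 0.05. Masp2, Zfp981, Zfp982 and Gm37795 passed, with changes in both directions.

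Zinc-finger genes of the KRAB family, which are known to silence transposable elements, lie in a cluster of near-identical copies near the locus. Of 18 listed, 11 were tested: 1 was called higher and 1 lower, and a further 3 on each side had an unadjusted p under 0.05. Zfp990 had 4.97 and 0.754 CPM in TKO and 0.0559 and 0.0532 CPM in WT. Zfp993 had 5.44 and 5.51 CPM in TKO and 1.4 and 0.479 CPM in WT. Both were higher in each TKO library, and only 18.8% of the Zfp993 reads were unique. Zfp984 went the other way, with 2.95 and 1.8 CPM in TKO and 5.08 and 8.51 CPM in WT. Reads of these copies can be split between them, so their single values are uncertain.

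Markers of fibroblasts had lower values in TKO for most members. Of 27 markers of meningeal fibroblasts, the cells of the pia and dura around the cord, 23 were below 0 and 4 above. The median log2 change was −1.06. Both TKO libraries lay below both WT libraries for 19 of the 27 (70.4%, against 17.1% of all genes), and 14 had an unadjusted p under 0.05, but Lum was the only one that passed. The members of this and every other list were chosen with earlier results of these data known. Their shares are therefore descriptions and not independent support. Dcn, which encodes the collagen-binding proteoglycan decorin, had 19.3 and 37.3 CPM in TKO and 75.1 and 65.1 CPM in WT (log2 −1.31, adjusted p = 0.533). Postn, the matrix protein periostin, had 4.66 and 3.36 CPM in TKO and 13.9 and 8.67 CPM in WT. The genotypes did not overlap in either gene.

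The fibrillar collagens had like values. Col1a2, a chain of type I collagen, had 52.4 and 84.3 CPM in TKO and 160 and 110.3 CPM in WT. Col1a1, the other chain, had 16.6 and 39.4 CPM in TKO and 81.9 and 55.2 CPM in WT. Col3a1, of type III collagen, had 29.4 and 59.9 CPM in TKO and 133 and 84.5 CPM in WT. For each of these 3 genes TKO replicate 1 was the lowest library and WT replicate 1 the highest. Of 20 collagen genes tested, 16 were below 0 and 4 above (median −0.42). Libraries were separate for 8 on the lower side (40%, against 17.1% of all genes) and 2 on the higher (10%, against 17.4%). Col1a1, Col1a2 and Col3a1 are also among the fibroblast markers, so the 2 lists are not independent. Col20a1 was an exception, with 19.8 and 23.7 CPM in TKO and 11.1 and 10.1 CPM in WT (log2 1.03, adjusted p = 0.484), and Col11a1 likewise had 50.5 and 51.7 CPM in TKO against 31.7 and 30.7 CPM in WT. Mfap5, a protein of elastic microfibrils, had 2.38 and 3.13 CPM in TKO and 9.44 and 7.39 CPM in WT.

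The summed level of the 27 fibroblast markers was 482 and 689 CPM in TKO and 1356 and 878 CPM in WT. WT replicate 1 was above WT replicate 2 for 25 of the 27, so the WT libraries differed in this group as well. The part of meninges kept at dissection was not tested. Without WT replicate 1 the median was −0.69, and without TKO replicate 2 it was −1.54. The collagen list's median ranged from −0.77 without TKO replicate 2 to −0.04 without WT replicate 1. Ptgds, a prostaglandin synthase of the meninges, varied widely between libraries of 1 genotype: it had 6.58 and 81.6 CPM in TKO and 191 and 50.8 CPM in WT.

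Within the insulin-like growth factor system, Igf1 fell, and the other members went both ways. Igf2, the second ligand, which meningeal fibroblasts make, had 39.9 and 70.3 CPM in TKO and 216 and 134 CPM in WT (log2 −1.67, adjusted p = 0.585), but 1.18% of its reads were unique. H19, the noncoding RNA imprinted with Igf2 and named after its values were seen, had 3.42 and 11.6 CPM in TKO and 57.6 and 21.1 CPM in WT. Pappa, a protease that frees the ligands from their carriers, had 4.76 and 4.06 CPM in TKO and 8.27 and 8.3 CPM in WT. Igfbp2, a carrier, had 25.4 and 33.8 CPM in TKO and 60.3 and 39.2 CPM in WT. The receptor of both ligands lay on the other side: Igf1r had 30.3 and 41.3 CPM in TKO and 28.5 and 24.8 CPM in WT. Over the 19 genes tested, 1 was called lower and none higher, and 4 lower and 0 higher had an unadjusted p under 0.05. The genotypes did not overlap for 5 genes on the higher side (26.3%, against 17.4% of all genes) and 7 on the lower (36.8%, against 17.1%). The median log2 change was −0.22, and −0.14 to −0.013 when 1 lumbar library was left out.

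Cell cycle genes lay on 1 side: all 32 were below 0, with a median log2 change of −0.77, and both TKO libraries lay below both WT libraries for 31 of them (96.9%, against 17.1%). No member passed, and 19 had an unadjusted p under 0.05. Nusap1, a spindle protein, had 3.83 and 2.38 CPM in TKO and 6.48 and 7.71 CPM in WT (log2 −1.19, SE 0.29, adjusted p = 0.656). Birc5, or survivin, had 3.42 and 3.13 CPM in TKO and 6.54 and 6.27 CPM in WT. Mcm2, of the helicase that licenses DNA replication, had 6.26 and 4.18 CPM in TKO and 10.2 and 9.2 CPM in WT. In each of these the groups were separate by a clear gap. Plk1, a mitotic kinase, had 1.92 and 1.91 CPM in TKO and 3.46 and 3.56 CPM in WT. Mki67, the antigen used to mark dividing cells, had 20.9 and 13.8 CPM in TKO and 27.3 and 26.8 CPM in WT. Top2a, topoisomerase II, had 20.7 and 9.16 CPM in TKO and 24.7 and 27.6 CPM in WT.

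TKO replicate 2, the library with the low mitochondrial share, was the lower of the TKO libraries for 28 of the 32 cell cycle genes. Its median was −1.05 and that of TKO replicate 1 was −0.49, both as the log2 of CPM plus 0.5 over the WT mean. Without TKO replicate 2 the list's median was −0.52, and without TKO replicate 1 −1.13. TKO replicate 1 was by itself below both WT libraries for 31 of the 32. Genes of immature neural cells were less uniform, with 12 of 17 below 0 and a median of −0.24, which was −0.16 without TKO replicate 2. Fabp7, a fatty acid binding protein of radial glia, had 192 and 108 CPM in TKO and 246 and 305 CPM in WT. Crabp1, which binds retinoic acid, had 14.8 and 17.6 CPM in TKO and 25.1 and 32 CPM in WT.

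**Figure D3:**
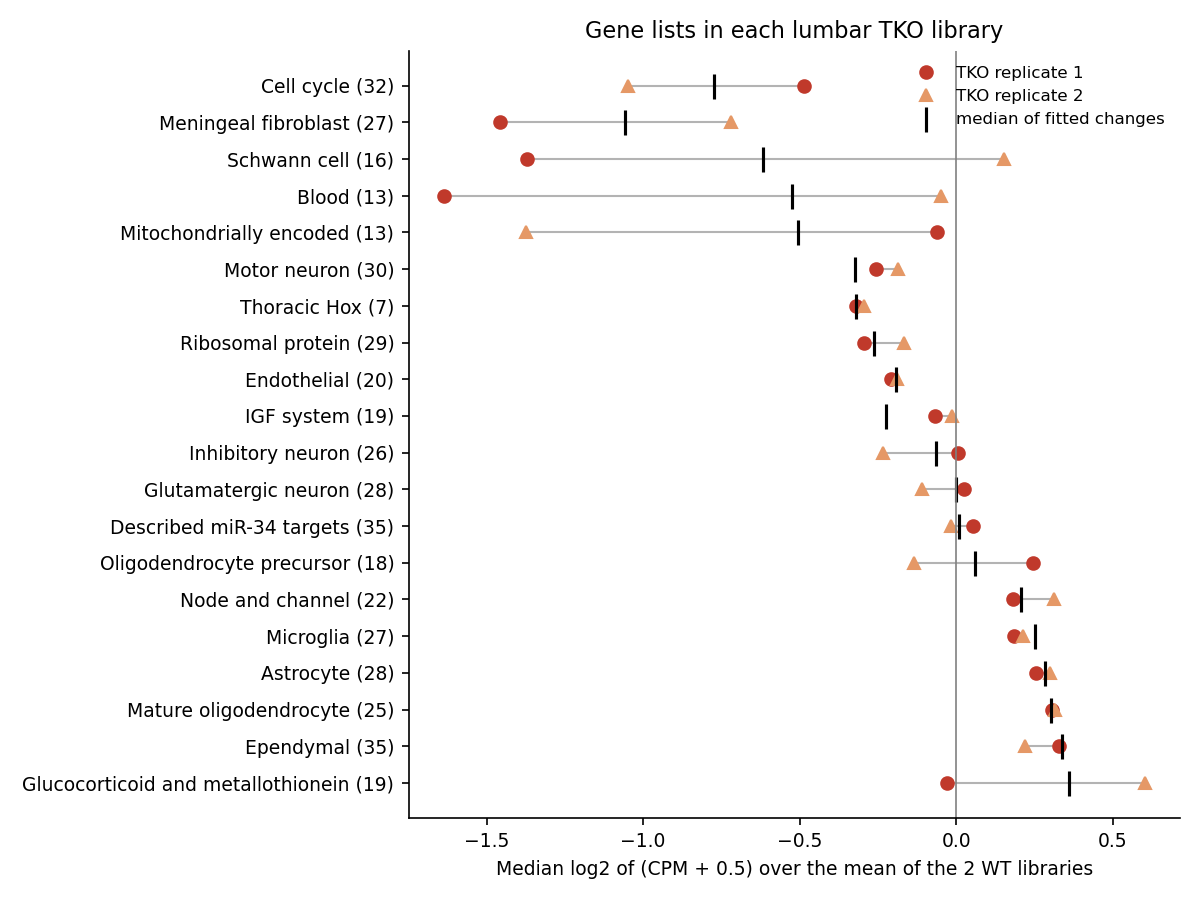
Median log2 of CPM plus 0.5 over the mean of the 2 WT libraries for each gene list, in TKO replicate 1 (circles) and TKO replicate 2 (triangles); black ticks are the median of the fitted changes and numbers in brackets the genes tested. Cell cycle and fibroblast lists were below 0 in both libraries, while the Schwann cell, blood and mitochondrially encoded lists lay far from 0 in 1 library only.

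Glial genes had higher values in TKO across 3 cell types, with small median changes and no gene past the threshold. Of 25 genes of mature oligodendrocytes, the myelin-forming cells, 24 were above 0 (median log2 0.30). Both TKO libraries were above both WT libraries for 18 of them (72%, against 17.4% of all genes), and 7 had an unadjusted p under 0.05. Padi2, which citrullinates myelin basic protein, had 218 and 204 CPM in TKO and 108 and 104 CPM in WT (log2 0.99, SE 0.15, adjusted p = 0.126). Padi2 is also among the genes within 10 Mb of Mir34a described above. Opalin, a membrane protein of myelin sheaths, had 114 and 135 CPM in TKO and 73.6 and 81.2 CPM in WT. Klk6, a protease of oligodendrocytes, had 47.7 and 48.9 CPM in TKO and 33 and 29 CPM in WT. The values of each genotype were close to each other and well apart from the other genotype. Mog, a surface glycoprotein of myelin, had 963 and 956 CPM in TKO and 670 and 780 CPM in WT.

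Mbp, myelin basic protein, did not separate, with 26353 and 33689.5 CPM in TKO and 26725 and 22855 CPM in WT. Per length, Mbp had 8449.99 and 13559 TPM in TKO and 8838 and 7125 TPM in WT, so the libraries of each genotype overlapped on that scale as well. The list's median kept to between 0.28 and 0.32 when any 1 lumbar library was left out. Precursors stood near 0: 12 of 18 genes were above 0 (median 0.06), and Olig2, the lineage's transcription factor, had 80.6 and 81.7 CPM in TKO and 80.5 and 76.2 CPM in WT. The sign of that list's median turned without TKO replicate 1, at −0.13, and without WT replicate 2, at −0.0062.

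Of 28 astrocyte genes, 25 were above 0 (median 0.28), 15 had separate libraries on the higher side (53.6%, against 17.4% of all genes) and 8 had an unadjusted p under 0.05, all higher in TKO. Because the list was chosen with earlier results of these data known, that share may partly reflect the choice of members. The median was 0.16 without WT replicate 2 and 0.39 without WT replicate 1. Fam107a, which binds actin and is abundant in astrocytes, had 87.3 and 122 CPM in TKO and 40.3 and 32.8 CPM in WT (log2 1.52, SE 0.24, adjusted p = 0.162). Itih3, a hyaluronan-binding plasma protein that astrocytes also make, had 105 and 113 CPM in TKO and 48.7 and 57.1 CPM in WT (log2 1.04, SE 0.15, adjusted p = 0.126). Dao, the oxidase that breaks down D-serine, had 5.38 and 8.64 CPM in TKO and 2.4 and 2.29 CPM in WT. In each of these 3 genes both TKO libraries lay above both WT libraries. Etnppl, an enzyme of phospholipid metabolism, had 2.33 and 4.52 CPM in TKO and 0.782 and 0.585 CPM in WT. Slc1a2, the main glutamate transporter, had 2722 and 2143 CPM in TKO and 1675 and 1564 CPM in WT. Gfap, the intermediate filament of astrocytes, overlapped, with 2021 and 1738 CPM in TKO and 1779.6 and 1581 CPM in WT. Aqp4, the water channel, did too: it had 1420.4 and 691 CPM in TKO and 1265 and 1319 CPM in WT, low in TKO replicate 2.

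Of 27 genes of microglia, the resident macrophages, 19 were above 0 (median 0.25). Ctss, the protease cathepsin S, had 60.8 and 70.9 CPM in TKO and 40.8 and 43.3 CPM in WT (log2 0.65, adjusted p = 0.688). Csf1r, the receptor on which microglia depend, had 91.6 and 97.6 CPM in TKO and 70.6 and 59.2 CPM in WT. Complement genes went both ways, with 10 of 17 above 0 and 7 below. Libraries were separate for 8 on the higher side (47.1%, against 17.4% of all genes) and 4 on the lower (23.5%, against 17.1%). On the higher side, C4b, which can share reads with its copy C4a, had 15.2 and 19.7 CPM in TKO and 10.1 and 8.03 CPM in WT, and C3 had 5.69 and 5.57 CPM in TKO and 3.63 and 2.23 CPM in WT. In that list 5 had an unadjusted p under 0.05, all higher in TKO and Masp2 among them. The median of 0.33 turned to −0.22 without TKO replicate 2.

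Ependymal genes bear on motile cilia, and the family is known for its part in the formation of multiciliated cells. Of 35 genes of motile cilia and ependyma that were tested, 32 were above 0 in the lumbar cord (median 0.34), 19 had separate libraries on the higher side (54.3%, against 17.4% of all genes) and 5 had an unadjusted p under 0.05, none past the adjusted threshold. Cfap44, an axonemal protein, had 8.28 and 9.8 CPM in TKO and 5.87 and 5.16 CPM in WT (log2 0.71, SE 0.22, adjusted p = 0.81). Ak7, an adenylate kinase of cilia, had 6.11 and 6.03 CPM in TKO and 4.02 and 2.55 CPM in WT. Ccp110, a centriole cap protein described as a target of the family, had 133 and 145 CPM in TKO and 100.2 and 99.7 CPM in WT. Each had both TKO libraries on top. Cfap54, of the central apparatus of cilia and not in the list, had 11.7 and 12.1 CPM in TKO and 4.97 and 5.32 CPM in WT (log2 1.21, SE 0.23, adjusted p = 0.33). Foxj1, the master factor of motile cilia, overlapped, with 11 and 16.2 CPM in TKO and 12.8 and 9.36 CPM in WT. In the thoracic cord the list's median was 0.01.

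**Figure D4:**
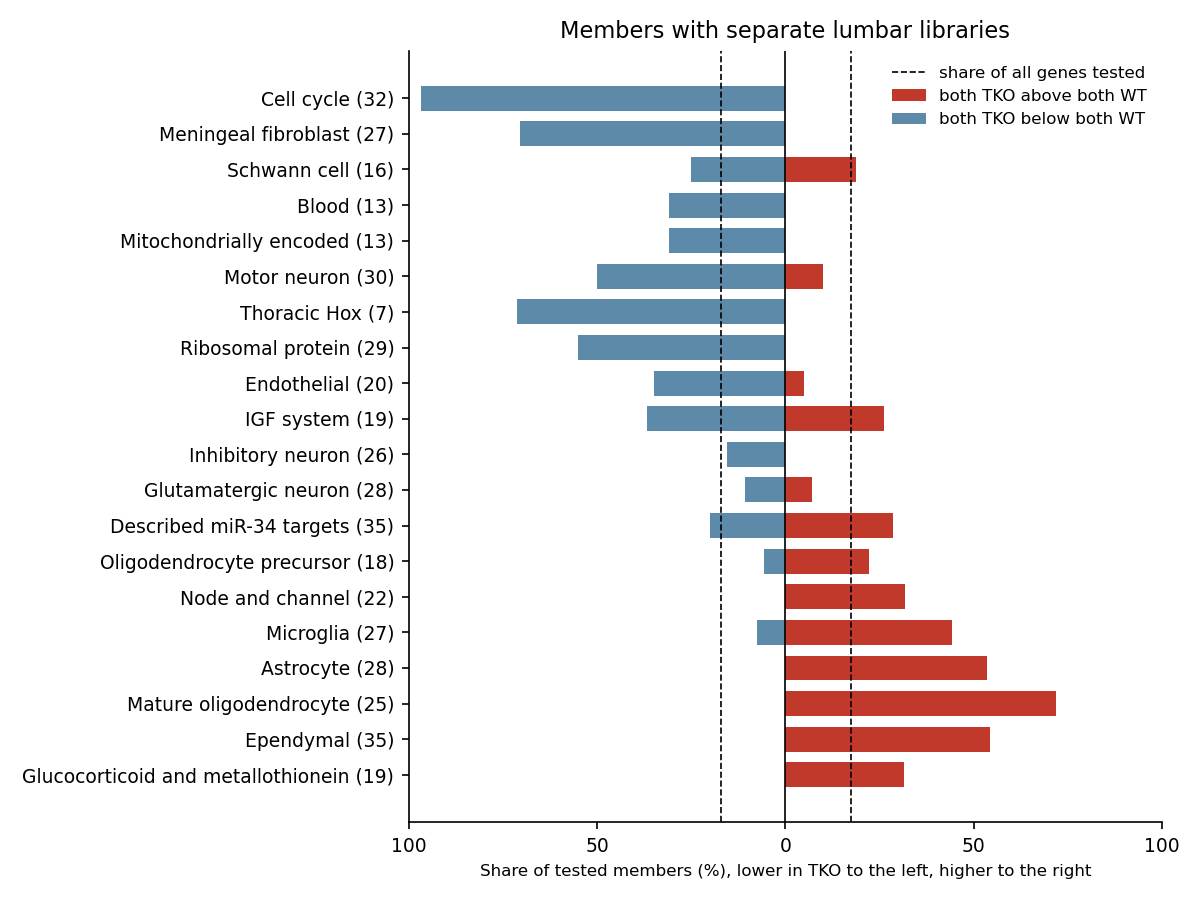
Share of each list's tested genes with both TKO libraries above both WT libraries (right, red) or below both (left, blue), with dashed lines at 17.4% and 17.1%, the shares of all genes tested. The cell cycle list reached 96.9% on the lower side and mature oligodendrocyte genes 72% on the higher side.

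Motor neuron genes had lower values in part. Of 30 genes, 23 were below 0 (median −0.32), 15 had separate libraries on the lower side (50%, against 17.1% of all genes) and 3 on the higher side (10%, against 17.4%), and 5 had an unadjusted p under 0.05, none past the adjusted threshold. Calca, the calcitonin gene-related peptide of motor and sensory neurons, had 9.99 and 12.2 CPM in TKO and 18.9 and 19.3 CPM in WT (log2 −0.78, SE 0.20, adjusted p = 0.683). Chodl, a lectin of fast motor neurons, had 18.1 and 11.3 CPM in TKO and 26.9 and 34.5 CPM in WT. Chat, the enzyme that makes acetylcholine, had 9.47 and 13.3 CPM in TKO and 15.1 and 17 CPM in WT. For these 3 genes the genotypes did not overlap. Slc18a3, the vesicular acetylcholine transporter, overlapped, with 6.42 and 11.3 CPM in TKO and 13.9 and 9.3 CPM in WT, with 0% unique reads. Isl1, a transcription factor of motor neurons, had 2.12 and 2.03 CPM in TKO and 1.9 and 1.91 CPM in WT. Without either TKO library or either WT library the list's median was −0.28 to −0.18. Smn1, whose human counterpart is lost in spinal muscular atrophy, the disease in the series title, had 13 and 13.5 CPM in TKO and 14.2 and 13.1 CPM in WT.

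Hox genes place the segment along the body axis. All 7 thoracic Hox genes were below 0 (median −0.32), 5 of them with separate libraries (71.4%, against 17.1% of all genes), and none passed: Hoxb9 had 102 and 97.6 CPM in TKO and 118 and 136 CPM in WT. Of the 8 posterior Hox genes, Hoxc13, the most posterior gene of its cluster, stood apart with 5.38 and 5.8 CPM in TKO and 2.74 and 2.71 CPM in WT (log2 1.04, adjusted p = 0.785). Hoxa10 and Hoxd10, which specify lumbar motor columns, were on the other side: Hoxa10 had 29.5 and 33.1 CPM in TKO and 37.5 and 35.5 CPM in WT, and Hoxd10 had 27.7 and 23 CPM in TKO and 32.6 and 36.2 CPM in WT. The level along the cord at which each library was dissected was not tested.

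Neurotransmitter genes were close to the background. The 26 inhibitory genes had a median of −0.06 and the 28 glutamatergic genes −0.0021. Gabra5, a subunit of GABA receptors, had 47.2 and 37.5 CPM in TKO and 58.5 and 72.6 CPM in WT. Glra2, the fetal glycine receptor subunit, had 16.9 and 9.22 CPM in TKO and 22.4 and 27.4 CPM in WT. Both genes were lower in each TKO library. Glra1, the adult subunit, had 34.1 and 39.9 CPM in TKO and 34.4 and 24.4 CPM in WT, with overlap. Genes of the axon initial segment, the node and its channels had 18 of 22 values above 0 (median 0.21, and 0.32 without TKO replicate 1). Ank3, the ankyrin that anchors sodium channels at those sites, had 413 and 448 CPM in TKO and 309 and 273 CPM in WT (log2 0.56, adjusted p = 0.754), and Kcna1, a potassium channel beside the node, had 65.9 and 81 CPM in TKO and 61.2 and 45.7 CPM in WT.

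Of the other genes that ranked highest by unadjusted p, none passed. Nr4a3, an orphan nuclear receptor induced by activity, had 6.47 and 6.32 CPM in TKO and 2.91 and 2.76 CPM in WT. Rabgef1, which activates the endosomal GTPase Rab5, had 43.5 and 47 CPM in TKO and 25.9 and 26.4 CPM in WT, but its log2 change of 0.79 was 0.18 with exon reads. Cdh19, a cadherin known from glia of the neural crest, had 29.6 and 27.7 CPM in TKO and 13.3 and 11.9 CPM in WT. In these 3 genes the libraries of a genotype lay close together. On the lower side, Clmp, an adhesion molecule, had 17.4 and 15.1 CPM in TKO and 31.2 and 30.7 CPM in WT. Mme, the peptidase neprilysin, had 14.4 and 12.8 CPM in TKO and 26.8 and 24.6 CPM in WT. Kdelr3, a receptor that returns proteins to the endoplasmic reticulum, had 3.26 and 3.42 CPM in TKO and 7.21 and 6.59 CPM in WT. These 3 were as tight within a genotype. Tuba1c, an alpha-tubulin with 35.4% unique reads, had 2.33 and 3.07 CPM in TKO and 7.49 and 7.92 CPM in WT. Mlip, a protein that binds lamin, had 3.16 and 6.21 CPM in TKO and 15.6 and 12 CPM in WT.

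In several lists the TKO libraries differed from each other. Schwann cell genes, which mark the spinal roots, had a median of −1.37 in TKO replicate 1 and 0.15 in TKO replicate 2. Without TKO replicate 1 the list's median was 0.16, so its negative median rested on that library. Within the list 3 genes were separate on the higher side (18.8%, against 17.4% of all genes), Cdh19, Mal and Itgb4. Mal is also among the mature oligodendrocyte genes, so those lists are not independent. On the lower side 4 were separate (25%, against 17.1%), Pmp22, Pmp2, Fxyd3 and Gldn. Of these, Gldn had 2.02 and 3.31 CPM in TKO and 8.32 and 6.11 CPM in WT, low in both TKO libraries.

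Blood genes had a median of −1.64 in TKO replicate 1 and −0.05 in TKO replicate 2, where members lay on both sides. Hba-a2, an alpha-globin whose reads were 7.7% unique, had 9.89 and 23.3 CPM in TKO and 87.5 and 48.2 CPM in WT. The genotypes did not overlap, though the libraries within each differed widely. Of the 13 genes tested, 5 genes of red cells had an unadjusted p under 0.05, all lower in TKO, while 5 genes of neutrophils had changes above 0 that overlapped between genotypes, each with its highest value in TKO replicate 2. Genes induced by glucocorticoids, with the metallothioneins, had a median of −0.03 in TKO replicate 1 and 0.60 in TKO replicate 2. Sgk1, a kinase induced by glucocorticoids, had 82.2 and 91.9 CPM in TKO and 61.8 and 55.8 CPM in WT. Mt2, a metallothionein, had 78.2 and 185 CPM in TKO and 102 and 57.1 CPM in WT, and Lcn2, an acute phase lipocalin, had 0.569 and 15.7 CPM in TKO and 2.35 and 1.33 CPM in WT. Lcn2 and Mt2 were high in TKO replicate 2 alone, and without it both changes were below 0.

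The difference between the segments was tested in the same fit, as the lumbar minus the thoracic genotype change. It called 1 gene (0.00586%), Gm42416, which had 0 unique reads in any library; 597 genes (3.5%) had an unadjusted p under 0.05, 375 (2.2%) with the lumbar change lower and 222 (1.3%) with it higher. Fam177a, with 0 reads in lumbar TKO and 70 and 69 in lumbar WT, ranked high too, but 1.44% of its reads were unique. Tspo, the translocator protein of mitochondria that reactive glia express, had 0.725 and 1.8 CPM in TKO and 2.96 and 2.07 CPM in WT in the lumbar cord. Its change was −1.01 there and 1.78 in the thoracic cord (unadjusted p of the difference 0.00227). Hoxd3 had 30.4 and 26 CPM in TKO and 16.3 and 19 CPM in WT, with 15.6% unique reads. None of these but Gm42416 passed.

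Ribosomal protein genes had the most members with an unadjusted p under 0.05 for this difference, 9 of 29, all with the lumbar change lower. In the lumbar cord 27 of 29 were below 0 (median −0.26, but −0.16 without TKO replicate 1 and −0.15 without WT replicate 1) and in the thoracic cord 25 of 29 were above (median 0.32). Rps2, a protein of the small subunit with 19.1% unique reads, had 255 and 276 CPM in TKO and 365 and 309 CPM in WT in the lumbar cord. In the list of ependymal genes 4 of 35 reached that p, with the lumbar change higher, among them Cfap44 (unadjusted p of the difference 0.011). No member of either list passed the adjusted threshold, so neither change is shown to differ between segments.

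Genes with a seed match were described last, from the 3′ untranslated regions (UTRs) of GENCODE vM21 on GRCm38, 1 per gene. Of 15084 tested genes with a 3′ UTR, 2585 (17.1%) held CACTGCC at least once in the sense of the transcript. Their median lumbar log2 change was 0.0359, against −0.0162 for the 12499 genes with no match. It was 0.047 where an A followed the match (903 genes) and 0.0713 with 2 or more matches (486 genes). Of the genes with 2 or more matches 62.6% were above 0, of those with no match 47.6%. UTRs with a match were longer, with a median of 2276 bases against 994. Among UTRs of 3000 bases or more the medians were 0.0686 with 2 or more matches, 0.0448 with at least 1 and −0.00721 with none, and among those of at least 1000 and under 3000 bases 0.0684, 0.0342 and −0.0245. These shifts are a small part of the spread among genes, whose quartiles with no match were −0.187 and 0.166, and they were not tested here.

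**Figure D5:**
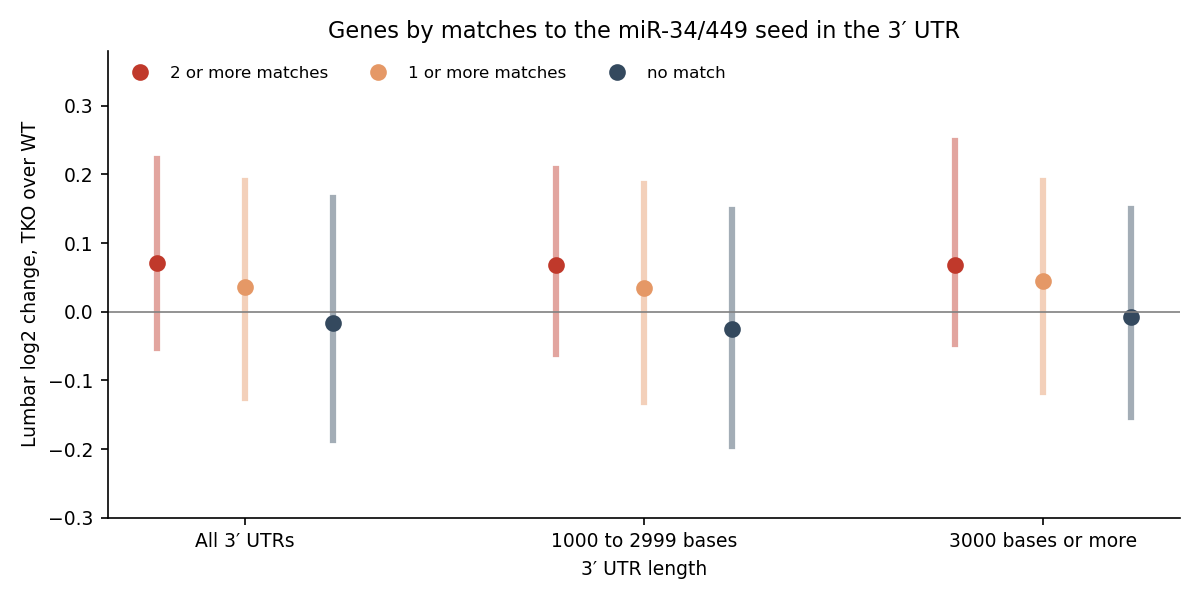
Median (points) and quartiles (bars) of the lumbar log2 change of genes with 2 or more, at least 1 or no seed match in the 3′ UTR, for all UTRs and for 2 ranges of UTR length. The medians were 0.0713, 0.0359 and −0.0162 over all UTRs, with bars that overlap widely.

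The matches of 3 genes with separate lumbar libraries are shown because these genes lie on opposite sides. Each line gives 11 bases on either side of the match, which is in capitals, in the sense of the transcript:
Fam107a, match 1: agagaggaagcCACTGCCaggaaagacct
Fam107a, match 2: ttgctcctcccCACTGCCctccctaaatt
Fam107a, match 3: tttgaagacccCACTGCCatggtgatgga
Met, match 1: ccaacagttctCACTGCCtggcctttgga
Met, match 2: tagatatttgtCACTGCCtatacctgcag
Igf1, match 1: attctaaatgtCACTGCCcaattgaaata
Fam107a is on chromosome 14, Met on chromosome 6 and Igf1 on chromosome 10. In 2 of the 3 Fam107a matches an A follows. The values of Fam107a and Igf1 are those given above, higher and lower in TKO. Met, a receptor tyrosine kinase described as a target of the family, had 4.81 and 3.54 CPM in TKO and 2.07 and 2.45 CPM in WT (log2 0.89, adjusted p = 0.822). Lum, Masp2, Zfp981 and Zfp982 had no match in their 3′ UTRs. A match is a description of the sequence and not a site shown to be bound.

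Genes described elsewhere as targets of the family did not move together. Of 35 tested, 19 were above 0 and 16 below, with a median of 0.01, and none passed. With an unadjusted p under 0.05, Csf1r, Ccp110 and Met were higher in TKO and Cav1 lower. Cav1, the coat protein of caveolae, had 32.8 and 26.6 CPM in TKO and 44.4 and 42.8 CPM in WT. Bcl2, an inhibitor of cell death, had 20.1 and 17.7 CPM in TKO and 13.2 and 16.9 CPM in WT. Axl, another receptor kinase described as a target, had 76.7 and 71.5 CPM in TKO and 70.2 and 56.5 CPM in WT. Both were separate by a narrow gap. Of these 6 genes, Csf1r, Met and Axl held a seed match in the 3′ UTR used here, and Ccp110, Cav1 and Bcl2 held none. The 19 genes of the p53 response had a median of −0.03, with 8 above 0 and 11 below.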

How the data were processed

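RNA was purified on Direct-zol columns and libraries were made with the TruSeq Stranded mRNA kit, per the labels' protocols. The authors deposited read counts per gene (total, unique, exon and intron reads) and TPM for 41325 genes, and the submitters' processing notes name mm10. No source used here names an aligner, a counter or a strand setting, so a gene and its antisense partner may share reads. The TPM values the authors deposited were used only to give levels per length.

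From the deposited counts of total gene reads, 1 model was fitted to all 8 libraries with a mean for each of 4 groups (edgeR 4.0.16 quasi-likelihood test in R 4.3.3, TMM, filterByExpr, Benjamini-Hochberg threshold 0.05 over 17067 genes). CPM are reads over the TMM-scaled library size. The floor of 3 reads in a library was 0.155 to 0.174 CPM. Intervals and floors cover counting error only. Gene lists were described by counts and medians, with no test of a list.

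Named genes were all called genes, up to 12 per direction with the smallest unadjusted p among genes with a mean of at least 5 CPM in the higher group and separate libraries, up to 6 genes a list with the smallest p and its best-known markers, the deleted loci, and the 5 genes with the smallest p of the difference. Gm42416, Gm14288, H19 and Cfap54 were named after their values were seen. The members and lists were chosen with earlier results of these data known. Alternatives were other scalings (RLE, upper quartile), DESeq2 1.42.0, limma 3.58.1 (voom), other read filters and read columns, the lumbar libraries alone, a replicate block, mitochondrial genes left out, and each lumbar library left out in turn. The steps were tested on simulated data. Some genes are not reported here. Summaries used Python 3.11.15, numpy 2.4.6, pandas 2.3.3 and scipy 1.17.1.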

Additional observations from a re-analysis of the deposited data

Results flagged for a closer look

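Gm42416 was the 1 gene whose genotype difference itself differed between segments, with an adjusted p of 0.0146 for the difference of the lumbar and thoracic changes in edgeR's quasi-likelihood test. Its reads numbered 0 and 0 in lumbar TKO, against 193 and 143 in lumbar WT. In the thoracic cord they numbered 145 and 173 for TKO and 223 and 222 for WT. None of its reads in any of the 8 libraries was uniquely placed, and it was not tested with unique reads.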

How the results depend on the processing

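The count of 7 genes was the same with RLE and upper quartile scaling, limma-voom, a mean of at least 10 reads, and mitochondrial genes left out. It was 41 with DESeq2, 17 without a filter on low counts, 5 with unique reads, 5 with the lumbar libraries alone, of which 3 were among the 7, and 2 with exon reads (Masp2 and Zfp982). Leaving out 1 lumbar library gave 1 to 6 calls, the lowest without WT replicate 2. The replicate numbers were not taken to pair the libraries: deviations of same-numbered lumbar TKO and WT libraries correlated at −0.33, though those of other pairs of groups lay between −0.275 and 0.442, the highest for lumbar TKO with either thoracic group. A replicate block gave 10 calls in the fit of 8 libraries and 62 in the 4 lumbar libraries alone. The crossed pairing, added after seeing the data, gave 600. The difference between segments kept 1 call in most settings, with 2 in DESeq2. It had 0 calls with unique reads (565 at an unadjusted p under 0.05) and 0 with exon reads (539), and 1 each time a lumbar library was left out. Some genes changed sign when 1 library was left out, the log2 change lying between −0.90 and 0.14 for Aqp4, −0.011 and 0.56 for Foxj1, −0.10 and 0.023 for Smn1, −1.67 and 3.10 for Lcn2, and −0.026 and 1.22 for Mt2. The cause of these differences was not tested.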
